A study of Oryza sativa with 20 samples.

Results

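Dexamethasone, a synthetic glucocorticoid, is used in plants as a chemical switch for transgenes, and its own effect has to be read in plants that lack the transgene. The 8 arrays described here give that reading in rice. They came from 2 lines of the crl1 (crown rootless 1) mutant in the cultivar Taichung 65 that carried no CRL1 transgene. Control line 1 was the untransformed mutant, and control line 2 was the same mutant transformed with the empty inducible plasmid pINDEX2. Each line gave 1 array after mock treatment (ethanol at 0.5‰) and 1 after 10 µM dexamethasone, at 4 h and again at 8 h. The members were all 4 dexamethasone arrays and all 4 mock arrays of these lines, 8 of the 20 arrays in the series, compared in 4 pairs that share line and time. The other 12 arrays came from 3 independent crl1 lines with a dexamethasone-inducible CRL1, referred to here as the CRL1 lines, treated and sampled in the same way.

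Seedlings were kept at 26 °C under a 12 h photoperiod. They went into liquid medium at an age of 7 days and received the treatment at 8 days. RNA of 20 pooled stem bases, the short stem segment from which crown roots emerge, was hybridised to each Affymetrix rice array. Every line lacks functional CRL1 of its own, so the crl1 mutation is shared by all groups. The empty-vector control is a single transformed line, and nothing in the labels says that the mock and dexamethasone samples of a line came from more than 1 culture each. The p-values below therefore rest on the spread between these 4 pairs, of which 2 share each line. Of 57258 probe sets other than the array's own controls, 28815 had a signal above their array's median on at least 4 of the 8 arrays and were tested.

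As background, higher plants have no glucocorticoid receptor of the animal kind. Vectors of the pINDEX2 type supply a chimeric transcription factor with a yeast DNA-binding domain, a viral activation domain and the hormone-binding part of the rat glucocorticoid receptor, which moves into the nucleus and becomes active when dexamethasone binds. Control line 2 and the CRL1 lines were made with that vector, and control line 1 was not. CRL1 itself is a LOB-domain transcription factor that acts downstream of auxin at the start of crown root formation.

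Dexamethasone left no probe set past the test in the control lines. With limma and Benjamini-Hochberg adjustment at 0.05, 0 of 28815 tested probe sets (0%) were called, and the smallest adjusted p was 0.235. At an unadjusted p below 0.05 there were 2583 probe sets (8.96%), 1293 of them higher (4.49%) and 1290 lower (4.48%) after dexamethasone, where 5% of the tests would be 1441. The count of 2583 became 1345 without control line 1, 1612 without the pair of line 1 at 4 h and 517 with no pairing of the arrays. The absence of calls came with bounds on size. The 95% interval of the log2 change lay within 1, that is within a doubling or a halving, for 26051 probe sets (90.4%) and within 0.5 for 16047 (55.7%). A pooled change above 1 in size was estimated for 200 probe sets, and 126 of these had the same direction in all 4 pairs.

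Single pairs differed more than their mean did. In control line 1 the dexamethasone array differed over 2-fold from its mock array at 1399 probe sets at 4 h and at 990 at 8 h. In control line 2 the numbers were 834 at 4 h and 1421 at 8 h. The standard deviation of the log2 changes over all tested probe sets was 0.41 to 0.49 in these 4 pairs, against 0.50 to 0.74 in the 6 pairs of the CRL1 lines. The 2 control lines differed more from each other than either did between treatments. Under the same treatment and at the same time, 2101 to 4463 probe sets differed over 2-fold between control lines 1 and 2, with standard deviations of 0.61 to 0.87.

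The changes of different control pairs were weakly correlated. Across tested probe sets, the Pearson correlation between the changes of any 2 control pairs ranged from -0.0082 to 0.15 with a median of 0.095, and the Spearman correlation from 0.0067 to 0.16. The 6 pairs of the CRL1 lines correlated with each other at 0.12 to 0.45. Between control and CRL1 pairs, which share no array, the range was -0.10 to 0.25, and both ends belonged to the empty-vector line. The highest value joined that line at 4 h with CRL1 line 1 at 4 h. The lowest joined it at 8 h with CRL1 line 2 at 4 h. These are correlations across genes of single arrays, and genes are not independent replicates. Of all tested probe sets, 2816 (9.77%) were higher after dexamethasone in all 4 control pairs and 2261 (7.85%) were lower in all 4.

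**Figure D1:**
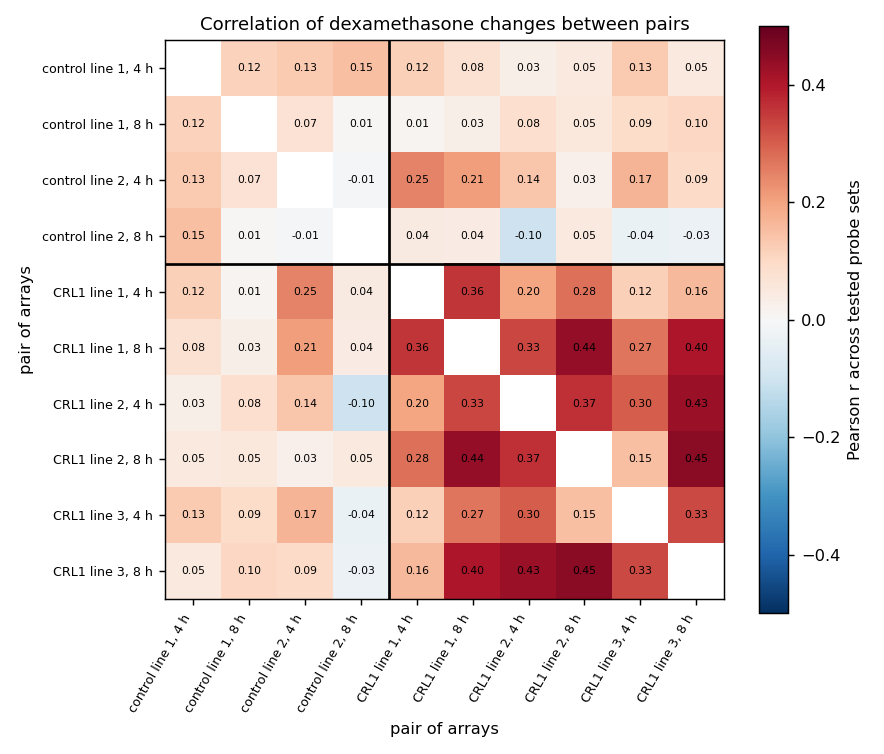
Pearson correlation, across the 28815 tested probe sets, between the log2 changes (dexamethasone over mock) of every 2 of the 10 pairs of arrays, with control pairs in the first 4 rows and CRL1 pairs in the last 6. Correlations among control pairs lie between -0.0082 and 0.15, and those among CRL1 pairs between 0.12 and 0.45.

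The 10 named genes leading the higher side and the 10 leading the lower side were taken by smallest p among genes with the same direction in all 4 pairs. Their adjusted p lay between 0.235 and 0.404, so each is given as a value and not as a change that passed the test. Signals below are listed for line 1 at 4 h and 8 h and then line 2 at 4 h and 8 h. Errors of log2 changes are limma's moderated standard errors. They combine the spread of a gene's own pairs with a trend over all tested probe sets. Errors for the CRL1 lines come from their 6 pairs, and those of differences between the 2 kinds of line from all 20 arrays.

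LAC24, a laccase of the family that oxidises lignin precursors, had the smallest p among named genes on the higher side. Its signals were 562, 669, 158 and 111 after mock treatment and 1095, 936, 339 and 178 after dexamethasone. Each dexamethasone array stood above its own mock array, although the arrays of the 2 lines did not overlap with each other at all, line 1 being the higher. The pooled log2 change was 0.80 ± 0.11, with a 95% interval of 0.54 to 1.06 and a limma adjusted p of 0.235.

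GH3-8, which joins auxin to amino acids and so lowers free auxin, had mock signals of 131, 178, 112 and 105 and dexamethasone signals of 149, 399.7, 313 and 158. The pooled change was 0.85 ± 0.20. The step was small in line 1 at 4 h and above 2-fold in line 1 at 8 h and in line 2 at 4 h. GLU8, an endoglucanase that cuts cell wall glucans, had smaller and more even steps, from 193, 141, 337 and 306 to 236, 181, 518 and 404, a change of 0.42 ± 0.09. Both genes were called in the CRL1 lines, where GH3-8 rose by 2.99 ± 0.17 and GLU8 by 2.24 ± 0.10 on the log2 scale (limma adjusted p = 7.1e-05 and 2.8e-05).

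PPDK2, a pyruvate, phosphate dikinase, had the largest mean of the 10. Its signals were 90.9, 398, 121 and 135 after mock treatment and 197, 1144, 329 and 145 after dexamethasone, a change of 1.04 ± 0.22. The pair of line 2 at 8 h hardly differed, and the other 3 pairs differed over 2-fold. Its probe set is of the type that can match several transcripts. BGLU22, a beta-glucosidase, stood at 0.78 ± 0.17 and YAB5, a YABBY transcription factor, at 0.53 ± 0.12. The others on this side were OsC3H23, a CCCH zinc finger protein, at 0.49 ± 0.12, OsCASPL1D1, a CASP-like membrane protein, at 0.47 ± 0.11, SMR1 at 0.42 ± 0.10, and INO1, which makes the inositol phosphate precursor, at 0.41 ± 0.08.

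On the lower side the leading named gene was TBL6, a xylan acetyltransferase of the trichome birefringence-like family. Its signals were 712, 546, 655 and 601 after mock treatment and 399, 346, 499 and 343 after dexamethasone. All 4 dexamethasone arrays lay below all 4 mock arrays, and the log2 change was -0.67 ± 0.09 with a 95% interval of -0.89 to -0.45. A further probe set of the gene gave -0.62. Cht1, a chitinase, also had groups that did not overlap, with 292, 228, 256 and 213 against 121, 150.2, 163 and 123 and a change of -0.82 ± 0.12.

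ILL3, an amidohydrolase that frees auxin from its amino acid conjugates, went from 263, 133, 858 and 679 to 132, 109.5, 390.4 and 449. The pooled change was -0.75 ± 0.14, and the lines kept apart throughout, line 2 being several times brighter in every array. APY3, an apyrase that breaks down extracellular nucleotides, had the largest mean, -1.47 ± 0.27, and an uneven one. Its signals were 810.1, 414, 298 and 243 after mock treatment and 172, 311, 73.2 and 102 after dexamethasone, so that the 2 arrays of a pair were further apart at 4 h than at 8 h in both lines.

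TIP1, a water channel of the vacuole membrane, had a change of -1.03 ± 0.21. UGD4, a UDP-glucose dehydrogenase that makes precursors of wall polysaccharides, had -0.46 ± 0.08. The remaining genes were BGLU30, another beta-glucosidase, at -0.56 ± 0.11, CCD8A, a carotenoid cleavage dioxygenase of strigolactone synthesis, at -0.50 ± 0.09, CESA4, a cellulose synthase of secondary walls, at -0.45 ± 0.09, and the pyrimidine nucleotide kinase gene ura6 at -0.42 ± 0.08. CCD8A was the most even of these over the pairs.

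**Figure D2:**
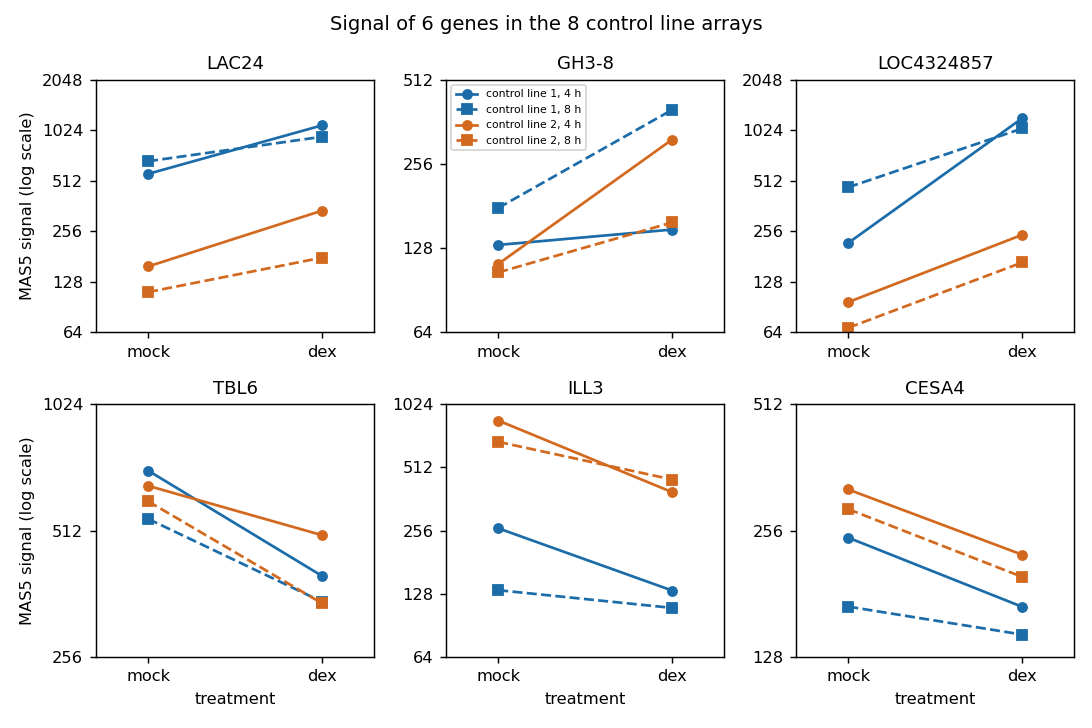
MAS5 signal (log scale, doubling per tick) of 6 genes in the 8 control line arrays, mock on the left and dexamethasone on the right of each panel, with a line joining the 2 arrays of a pair. LAC24, GH3-8 and LOC4324857 step up and TBL6, ILL3 and CESA4 step down in each of the 4 pairs. For every gene but TBL6 the mock arrays of the 2 lines (colours) do not overlap.

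**Figure D3:**
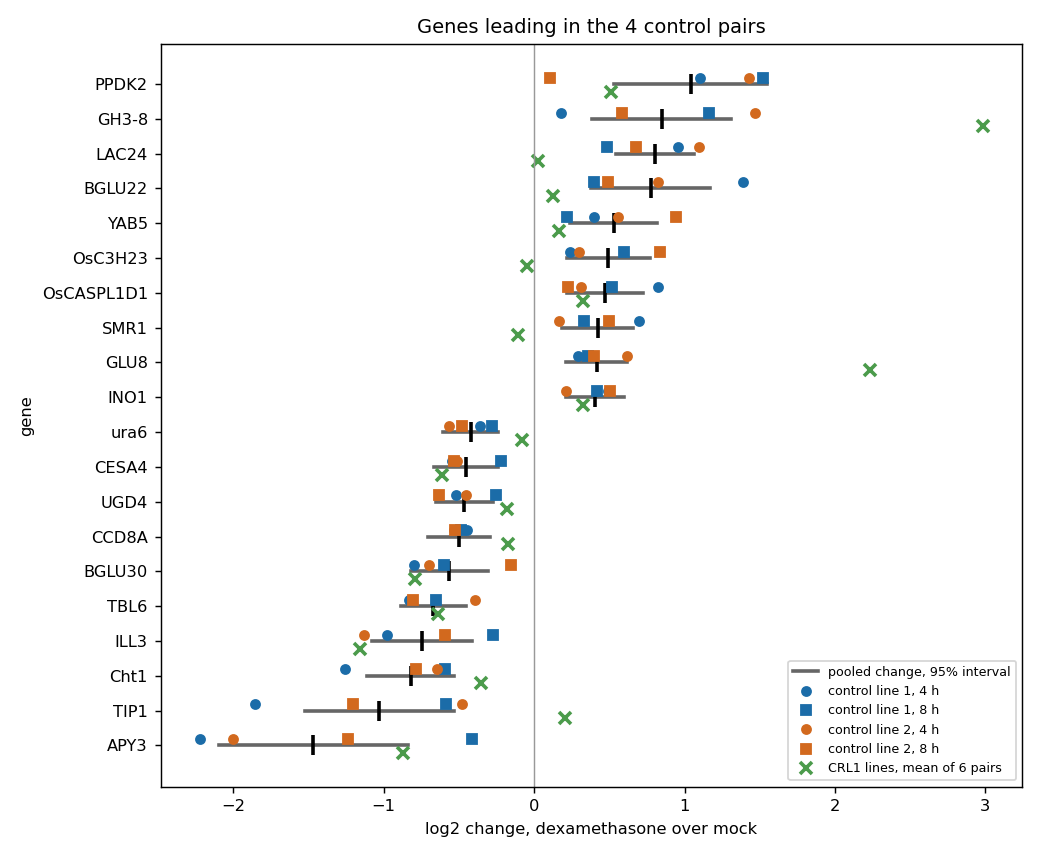
Log2 change (dexamethasone over mock) of the 20 leading named genes, with the 4 control pairs as points, the pooled change as a tick with its 95% interval as a bar, and the mean over the 6 pairs of the CRL1 lines as a cross. The crosses of GH3-8 (2.99) and GLU8 (2.24) lie far above the control values of 0.85 and 0.42. Those of TIP1 (0.20), SMR1 (-0.11) and OsC3H23 (-0.050) lie on the other side of 0 from the control value.

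Among probe sets with no gene name, the smallest p on the higher side belonged to a pair without an annotated gene. The first had signals of 83.4, 156, 108 and 102 after mock treatment and 141, 249, 178 and 203 after dexamethasone, a change of 0.78 ± 0.10. The second went from 68.7, 185, 34.8 and 24.1 to 285, 396, 72.6 and 68.7, a change of 1.40 ± 0.17. Another probe set of the same transcript cluster, by its array identifier, which is listed for LOC4324857 and was added after its values were seen, gave 218, 468, 96.7 and 68 against 1207, 1049, 244 and 167. That is a change of 1.55 ± 0.21 with an interval of 1.07 to 2.03 (limma adjusted p = 0.235), and in each pair the dexamethasone array was over 2-fold the brighter. On the lower side stood LOC4337884, with 2641, 1817, 1373 and 1082 against 1377, 1019, 828 and 461 and a change of -0.93 ± 0.09, and LOC4330226 with -0.76 ± 0.09.

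Lower values after dexamethasone were frequent among cellulose and hemicellulose synthase genes, though none passed the test. Of 25 tested cellulose and hemicellulose synthase genes (29 listed), 10 were lower at an unadjusted p below 0.05 and 1 was higher, CSLA9, which was picked out after its value was seen. Among all 15973 tested genes, each by 1 probe set, 865 (5.42%) were lower and 683 (4.28%) higher by that rule. None of the 25 was called after adjustment. The median log2 change of the list was -0.22, against 0.0030 over all tested genes, and 9 were lower in all 4 pairs, where 1513 of all tested genes (9.47%) were. Without control line 1 the count of 10 became 3, and with no pairing of the arrays it became 1.

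CESA4 had mock signals of 246, 169, 321 and 288 and dexamethasone signals of 168, 145, 224 and 198. The pair of line 1 at 8 h differed least, and the groups overlapped because line 2 was the brighter throughout. A further probe set of CESA4 gave -0.11, so the probe sets of this gene disagree in size. CESA9 and CESA7, which work with CESA4 in secondary walls, stood at -0.41 ± 0.12 and -0.53 ± 0.17. CESA5 and CESA6, which belong to primary wall complexes, stood at -0.30 ± 0.07 and -0.32 ± 0.08, and CSLC7, a xyloglucan glucan synthase relative, at -0.35 ± 0.08.

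In the CRL1 lines CESA4, CESA7 and CESA9 fell too (log2 changes of -0.61, -0.53 and -0.68, limma adjusted p = 0.0302, 0.0165 and 0.0431). CESA6 rose there by 0.77 ± 0.10, and its difference between the CRL1 and control lines passed the test (1.10 ± 0.13, limma adjusted p = 0.00156). CESA5 and CSLC7 had values of -0.15 ± 0.12 and -0.17 ± 0.11 there and were not called.

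Of 23 tested lignin and phenylpropanoid genes, 5 were lower and 2 higher at an unadjusted p below 0.05, with a list median of 0.043. Among all tested genes 5.42% were lower and 4.28% higher by that rule. Without control line 2 the count of lower genes became 2. The laccases differed in sign. LAC23 was at 50.5, 39.2, 37.7 and 39.3 after mock treatment and 21.7, 33.7, 26.6 and 19.5 after dexamethasone, and LAC4 at 55.6, 31.8, 86.1 and 89.3 and 28.1, 27.2, 69.6 and 39.1. Their changes were -0.70 ± 0.20 and -0.65 ± 0.19, against 0.80 ± 0.11 for LAC24. Both fell in the CRL1 lines as well (-1.11 ± 0.19 and -1.13 ± 0.22, limma adjusted p = 0.00871 and 0.0162), whereas LAC24 had 0.028 ± 0.17 there. The difference of LAC24 between the 2 kinds of line missed the test (-0.78 ± 0.25, limma adjusted p = 0.141). Cfi, a chalcone isomerase of flavonoid synthesis, stood at -0.49 ± 0.13.

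Among 35 tested expansins and wall-remodelling enzymes, 5 were lower and 1 higher (GLU8) by the same rule, beside the same 5.42% and 4.28%. In all 4 pairs 8 were lower, beside 9.47% of all tested genes. Leaving out control line 1 made the 5 into 1. Leaving out the pair of line 1 at 8 h made it 3, and that of line 2 at 4 h made it 8. The endoglucanase GLU11 stood at -0.37 ± 0.10, the expansin-like EXLA3 at -0.46 ± 0.13 and the expansin EXPA2 at -0.26 ± 0.08. GLU11 rose in the CRL1 lines by 0.44 ± 0.10, and its difference between the 2 kinds of line passed the test (limma adjusted p = 0.0129).

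Secondary wall genes also mark vascular tissue, and in bulk tissue fewer cells of a type cannot be told apart from less RNA per cell. Of 12 tested vascular genes, which include CESA4, CESA7 and CESA9, 4 were lower and none higher in all 4 pairs, with a median of -0.13. Among all tested genes 9.47% were lower and 9.19% higher in all 4 pairs. Their summed signal was 3314 to 3562 in the mock arrays and 2981 to 3810 in the dexamethasone arrays, so the groups overlapped. The part of vascular tissue content in the wall gene values was not tested.

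Auxin and crown root genes were looked at because GH3-8 and ILL3 act on auxin conjugates from opposite ends. Of 23 tested Aux/IAA genes, which encode repressors of auxin response, 4 were lower and 0 higher at an unadjusted p below 0.05, and the list median was -0.16. As for the later lists, these counts stand beside 5.42% lower and 4.28% higher among all tested genes. The count was 1 without control line 1, and also 1 without the 4 h pair of that line alone. IAA15 had signals of 1200.3, 988, 924 and 972 after mock treatment and 857, 849.6, 683 and 894 after dexamethasone, a change of -0.31 ± 0.08. It fell in the CRL1 lines (-0.86 ± 0.08), and the difference passed the test (-0.55 ± 0.12, limma adjusted p = 0.0309). IAA18 stood at -0.24 ± 0.09 and IAA3 at -0.17 ± 0.07. The remaining one was IAA13, which the crown root list below also holds. Of 16 auxin response factors 3 were lower and 0 higher, among them ARF1 at -0.27 ± 0.10 and ARF10 at -0.34 ± 0.14. ARF10 had the opposite sign in the CRL1 lines, where it rose by 0.95 ± 0.20 (limma adjusted p = 0.0216), and the difference passed the test (1.29 ± 0.28, limma adjusted p = 0.0353).

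Of 8 tested GH3 and SAUR genes, which respond early to auxin, GH3-8 and SAUR39 (0.26 ± 0.09) were higher in all 4 pairs, and the other 6 had no single direction over the pairs. The list median was 0.11. Among 4 auxin carrier genes none reached an unadjusted p of 0.05. OSPIN10a was at 0.29 ± 0.14 and PIN5A at -0.42 ± 0.28.

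All 9 tested regulators of crown root formation and root patterning are given, of 11 listed. Their median change was -0.30, and 4 were lower and 0 higher at an unadjusted p below 0.05. The count was 1 without control line 1, 2 without control line 2 and 2 without the pair of line 1 at 4 h. WOX11, a homeobox factor that promotes crown root growth, had signals of 281, 317, 109 and 96 after mock treatment and 243, 244, 89.5 and 75.5 after dexamethasone, with every pair lower by a similar step (-0.30 ± 0.09). RR1, a cytokinin response regulator, went from 64.5, 50, 129.6 and 132 to 57.8, 39.1, 84.1 and 96.2 (-0.39 ± 0.12). The cytokinin oxidase gene CKX4 stood at -0.51 ± 0.21, nearly all of it in line 1, where the signal went from 179 to 75.3 at 4 h and from 120.5 to 75.5 at 8 h.

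IAA13, the last of the 4 and also counted among the Aux/IAA genes above, was at -0.30 ± 0.11 and lower in 3 of the 4 pairs. The other regulators did not reach an unadjusted p of 0.05. IAA23 stood at -0.23 ± 0.15 and RR2, another cytokinin response regulator, at -0.12 ± 0.13. The ground tissue factors SHR1 and SCR1 stood at -0.26 ± 0.14 and -0.32 ± 0.19. QHB, a homeobox gene of the root quiescent centre, was dim in every control array. Its signals were 10.3, 13.3, 28.6 and 30.6 after mock treatment and 13.8, 14.4, 26.1 and 29.7 after dexamethasone, a change of 0.077 ± 0.21 with an interval of -0.40 to 0.56. In the CRL1 lines QHB rose by 3.39 ± 0.29, and the difference of 3.32 ± 0.40 passed the test (limma adjusted p = 0.00139). WOX11, IAA13, CKX4 and RR2 fell in the CRL1 lines (limma adjusted p = 0.00921, 0.00447, 0.0396 and 0.0009) and IAA23 rose (limma adjusted p = 0.0172). Of these the difference from the control lines passed the test for RR2 (-0.86 ± 0.16, limma adjusted p = 0.014) and for QHB, and missed it for WOX11, IAA13, CKX4 and IAA23 (limma adjusted p = 0.142, 0.414, 0.822 and 0.0508).

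**Figure D4:**
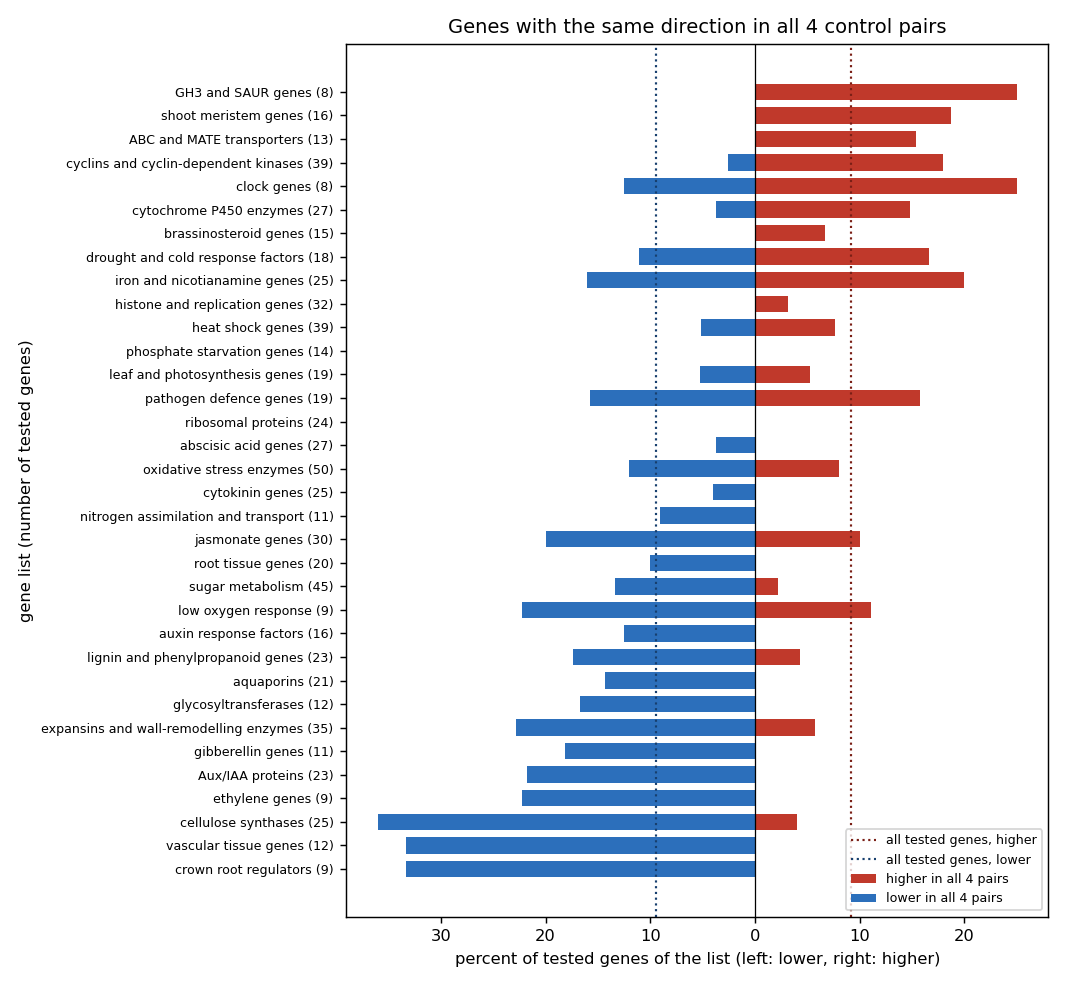
Percentage of the tested genes of each list that were higher (right) or lower (left) after dexamethasone in all 4 control pairs, for lists with at least 8 tested genes, with the same percentages over all 15973 tested genes as dotted lines (9.19 higher and 9.47 lower). Cellulose synthases (9 of 25) and crown root regulators (3 of 9) reach furthest to the left, together with vascular genes (4 of 12).

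Dexamethasone is a steroid and the mock treatment contained ethanol, so genes of steroid hormones, detoxification and alcohol metabolism were read next. The sample labels do not say whether the dexamethasone treatment contained ethanol too. Of 15 tested genes of brassinosteroids, the plant steroid hormones, 1 was lower and 0 higher at an unadjusted p below 0.05, with a median of -0.062. That gene was CYP85A1, which makes castasterone, at -0.54 ± 0.20. CPD2 had -0.22 ± 0.12 and the kinase gene GSK1 0.18 ± 0.11. Genes of alcohol and aldehyde metabolism had 4 tested members and 0 at an unadjusted p below 0.05, with PDC1, a pyruvate decarboxylase, at -0.46 ± 0.49 and Adh2 at 0.034 ± 0.19.

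Among 27 tested cytochrome P450 genes 5 were higher and 2 lower, among 13 ABC and MATE exporters 2 were higher and 0 lower, and among 6 glutathione S-transferases 0 were higher and 2 lower. The P450 count of 5 was 1 without control line 1, 1 without its 4 h pair and 2 without the 4 h pair of line 2. CYP76M7 and CYP76M8, which act in diterpenoid phytoalexin synthesis, stood at 0.67 ± 0.20 and 0.54 ± 0.16. The signals of CYP76M7 were 28.2, 15.9, 25 and 18.7 after mock treatment and 35.6, 31.3, 51.9 and 26.2 after dexamethasone. The exporters ABCG48 and ABCG37 stood at 0.39 ± 0.11 and 0.28 ± 0.10, and the transferases GST-I and GSTZ5 at -0.59 ± 0.18 and -0.52 ± 0.18.

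Of 30 tested jasmonate genes 2 were higher and 6 lower by the same rule. The allene oxide cyclase gene aoc had signals of 894, 730.2, 1298 and 1576 after mock treatment and 613, 486, 993 and 1468 after dexamethasone, a change of -0.40 ± 0.09, and fell by 0.43 in the CRL1 lines (limma adjusted p = 0.024). The 2 allene oxide synthase loci differed in sign, LOC4334233 at -0.54 ± 0.15 and LOC4332121 at 0.62 ± 0.20. The repressor gene JAZ8 stood at -0.70 ± 0.24. Of 19 pathogen defence genes 3 were higher and 2 lower, with the chitinase gene Chib3H-a at 0.43 ± 0.13 and the NPR1-like NH1 at 0.42 ± 0.14. Of 6 WRKY factors 1 was higher, WRKY24 at 0.57 ± 0.22.

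Other hormone lists were counted by the same rule. Ethylene genes had 1 higher and 2 lower of 9, with the receptors ERS2 at -0.37 ± 0.13 and ETR3 at -0.21 ± 0.08. Gibberellin genes had 0 of 11. Abscisic acid genes had 2 lower of 27, LIP9, a dehydrin, at -0.33 ± 0.10 and REK at -0.43 ± 0.15. Cytokinin genes had 2 lower of 25, RR1 and CKX4, which the crown root list also holds.

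Among stress lists, 39 heat shock genes held 1 higher and 3 lower. The small heat shock gene HSP22.3 had mock signals of 172, 60.2, 69.3 and 66.5 and dexamethasone signals of 35, 49.4, 42.6 and 27.3, a change of -1.11 ± 0.29, and it fell in the CRL1 lines by a like amount (-1.03 ± 0.24, limma adjusted p = 0.0327). Of 50 oxidative stress enzymes 3 were higher and 6 lower, with the peroxidase PRX112 at -1.17 ± 0.33 and the glutaredoxin GRXS5 at 0.32 ± 0.09. A further probe set of PRX112 gave -0.12, so the probe sets of this gene disagree in size. The haemoglobin genes of the low oxygen list, NSHB2 and NSHB1, stood at 0.55 ± 0.15 and 0.36 ± 0.14.

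Of 21 tested aquaporins 4 were lower and 0 higher, namely TIP1, PIP2-5 (-0.34 ± 0.10), PIP2-2 (-0.37 ± 0.12) and Lsi6 (-0.57 ± 0.21), and the list median was -0.15. Without control line 2 the count was 2. PIP2-5 and PIP2-2, channels of the plasma membrane, fell in the CRL1 lines (-1.33 ± 0.22 and -0.93 ± 0.11, limma adjusted p = 0.00719 and 0.00167). Their differences from the control lines missed the test (limma adjusted p = 0.128 and 0.158). Of 45 sugar metabolism genes 5 were lower and 1 higher, with the hexokinase HXK2 at -0.67 ± 0.15 and the cell wall invertase CIN1 at -0.36 ± 0.08.

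Growth and housekeeping lists held no such gene. None of 32 histone and replication genes, 39 cyclins and cyclin-dependent kinases or 24 ribosomal protein genes reached an unadjusted p of 0.05. Their medians were 0.030, 0.050 and 0.017. In all 4 pairs, 7 of the 39 cyclins and cyclin-dependent kinases were higher and 1 lower. For histone and replication genes these counts were 1 and 0, and for ribosomal protein genes 0 and 0. Among all tested genes 9.19% were higher and 9.47% lower in all 4 pairs. Of 8 clock genes 1 was higher and 1 lower, PRR95 at 0.23 ± 0.07 and DTH8 at -0.54 ± 0.20. The counts in the remaining lists were these. There were 2 higher and 3 lower of 18 drought and cold response factors, 2 higher and 0 lower of 14 phosphate starvation genes, 0 higher and 1 lower of 11 nitrogen genes and 3 higher and 2 lower of 25 iron and nicotianamine genes. There were 0 higher and 1 lower of 12 glycosyltransferases and 0 of either kind among 7 sterol and membrane lipid genes.

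Markers of other tissues were read as a check of what the stem bases held. Of 19 tested leaf and photosynthesis genes, 18 or 19 were above their array's median in each of the 8 arrays, and of 16 shoot meristem genes 15 or 16 were. The summed leaf signal was 17942 to 26360 in the mock arrays and 18338 to 28111 in the dexamethasone arrays, and the gap lay between lines, with line 1 below line 2 in every array. Shoot meristem genes summed to 4215 to 5479 and 3763 to 4788. The meristem gene OSH1 had signals of 658 to 1018 over the 8 arrays.

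The summed signal of 20 root tissue genes did not overlap between treatments. It was 5107 to 5958 in the mock arrays and 3392 to 4919 in the dexamethasone arrays. NAS3, a nicotianamine synthase of metal transport, was a large part of it, with mock signals of 3695, 2404, 2998 and 2732 and dexamethasone signals of 1373, 1593, 2752 and 1914 (-0.66 ± 0.18). Its mean was 2957 in the mock and 1908 in the dexamethasone arrays. The separation of the sums rested on NAS3. With its signal taken away the sums of the 2 treatments overlapped, and in line 1 dexamethasone was the higher at both times. The list median, in which each gene counts alike, was 0.039 and so of the other sign. The part of root tissue content in the results was not tested. NRAMP5, a manganese transporter of the root, was lower in all 4 pairs (-0.45 ± 0.11) and fell in the CRL1 lines (-1.03 ± 0.10, limma adjusted p = 0.00071). PHT1-1, a phosphate transporter, stood at 0.30 ± 0.12, and the silicon channel gene Lsi1 was measured at 247 to 517 in the 8 arrays.

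Control line 2, which carries the empty vector, was compared with control line 1, which does not. With 1 line of each kind, an effect of the vector cannot be told apart from other differences between the lines. With limma 0 of 28815 probe sets (0%) had a dexamethasone effect that differed between the lines after adjustment (smallest adjusted p 0.325), and 1075 (3.73%) did so at an unadjusted p below 0.05. The median standard error of that difference was 0.27 on the log2 scale.

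RAB16B, a dehydrin that responds to abscisic acid, led the named genes with the higher effect in line 2. In line 1 it went from 164 to 109 at 4 h and from 236 to 117 at 8 h. In line 2 it went from 599 to 959.6 and from 548 to 909. The lines had opposite signs, a log2 difference of 1.49 ± 0.19 (limma adjusted p = 0.996). Genes with the same sign of difference were the lectin gene Agglutinin at 1.41 ± 0.37, the acyl-CoA-binding protein ACBP4 at 1.16 ± 0.27, HCT3 at 1.93 ± 0.53 and the tryptophan decarboxylase TDC2 at 0.96 ± 0.26. HCT3 was dim, with 11.1, 28.2, 14.1 and 24.6 after mock treatment and 1.5, 8.2, 18.5 and 23.1 after dexamethasone. A further probe set of HCT3 had a pooled change of -0.45, against -0.83 for this one. TDC2 rose in the CRL1 lines, which carry the same vector with CRL1 in it, by 1.77 ± 0.09 (limma adjusted p = 5.4e-05).

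In the other direction, the chitinase Cht11 was higher after dexamethasone in both pairs of line 1 and lower in both pairs of line 2. Its signals were 85.8, 77.7, 179.7 and 133 after mock treatment and 190.0, 184, 85.4 and 93.2 after dexamethasone, a difference of -1.96 ± 0.25. AMY1.3, a starch-degrading alpha-amylase, was higher in both pairs of line 1 and had no single direction in line 2, with 35.2, 519.5, 21.4 and 29.9 against 125, 1612, 29.9 and 17.6 and a difference of -1.84 ± 0.40. UGE-1 (-0.86 ± 0.19), the replication helicase MCM2 (-0.78 ± 0.19) and GER6 (-0.79 ± 0.20) completed the 5.

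Between 8 h and 4 h, 0 of 28815 probe sets (0%) differed in their dexamethasone effect after limma adjustment (smallest adjusted p 0.919), and 1224 (4.25%) did so at an unadjusted p below 0.05. Without the pair of line 1 at 4 h 3 probe sets were called, and without that of line 2 at 4 h 7 were, in fits that leave 1 pair at 4 h. The metallothionein MT-1-4b led the genes with a lower effect at 8 h. Its signals were 573, 564, 431 and 415 after mock treatment and 1024, 428, 624 and 246 after dexamethasone, so both lines were higher at 4 h and lower at 8 h (-1.26 ± 0.20). CYP99A3 and CPS4 came next, with -1.26 ± 0.22 and -1.75 ± 0.35. They belong to the momilactone phytoalexin pathway and are close neighbours on chromosome 4, with 0 other protein-coding genes between them. CPS4 was bright in line 1 (152 and 607 after mock treatment) and near the floor in line 2 (8.3 and 2.6). PLP2 and OsCASPL1U3 had -0.80 ± 0.17 and -0.94 ± 0.22.

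Genes with a higher effect at 8 h were APY3 (1.29 ± 0.29), the catalase CAT-A (0.73 ± 0.17), HAP5B (0.98 ± 0.23), the chitinase Cht4 (1.23 ± 0.29) and atpB (0.91 ± 0.22). CAT-A was lower in both lines at 4 h, from 1905 to 1213 and from 1464 to 982. At 8 h it went from 1841 to 1793 in line 1 and from 1788 to 2176 in line 2.

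The same contrast was set beside that of the CRL1 lines, which carry the inducible CRL1. There 1400 probe sets (4.86%) rose and 1516 (5.26%) fell with limma at an adjusted p below 0.05. A test of the difference itself, over all 20 arrays, called 506 probe sets (1.76%) with a higher and 188 (0.652%) with a lower effect in the CRL1 lines. The total of 694 (2.41%) became 78 without control line 1, 209 without control line 2 and 344 without CRL1 line 2. For the 506 the median log2 change was 1.08 in the CRL1 lines and -0.080 in the control lines. For the 188 it was -0.78 and 0.093. These probe sets were chosen on the CRL1 value minus the control value, a choice that favours control values of the opposite sign, so nothing is read from the signs of these medians.

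Seen from the control lines, genes lower after dexamethasone tended to be lower in the CRL1 lines too. Of the 1290 probe sets lower at an unadjusted p below 0.05, 950 (73.6%) had the same sign in the CRL1 lines, where 55.9% of all tested probe sets were lower. In the CRL1 lines 315 of the 1290 (24.4%) were called lower, beside 5.26% of all tested probe sets. Of the 1293 higher ones 767 (59.3%) had the same sign, where 44.1% of all tested probe sets were higher. Of these 1293, 113 (8.74%) were called higher, beside 4.86% of all tested probe sets. Opposite calls in the CRL1 lines were made for 56 of the 1290 lower probe sets, where 4.86% of all tested probe sets were called higher. They were made for 26 of the 1293 higher probe sets, where 5.26% of all tested probe sets were called lower.

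Seen from the CRL1 lines, 359 of the 1516 probe sets that fell there (23.7%) were lower in all 4 control pairs, beside 7.85% of all tested probe sets. Of the 1400 that rose, 165 (11.8%) were higher in all 4 control pairs, beside 9.77%. The median control change was -0.12 for those that fell and 0.040 for those that rose, against -0.62 and 0.75 in the CRL1 lines. Control and CRL1 pairs share no array, but the lines were grown and treated under the same protocol, and what else they share was not tested.

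**Figure D5:**
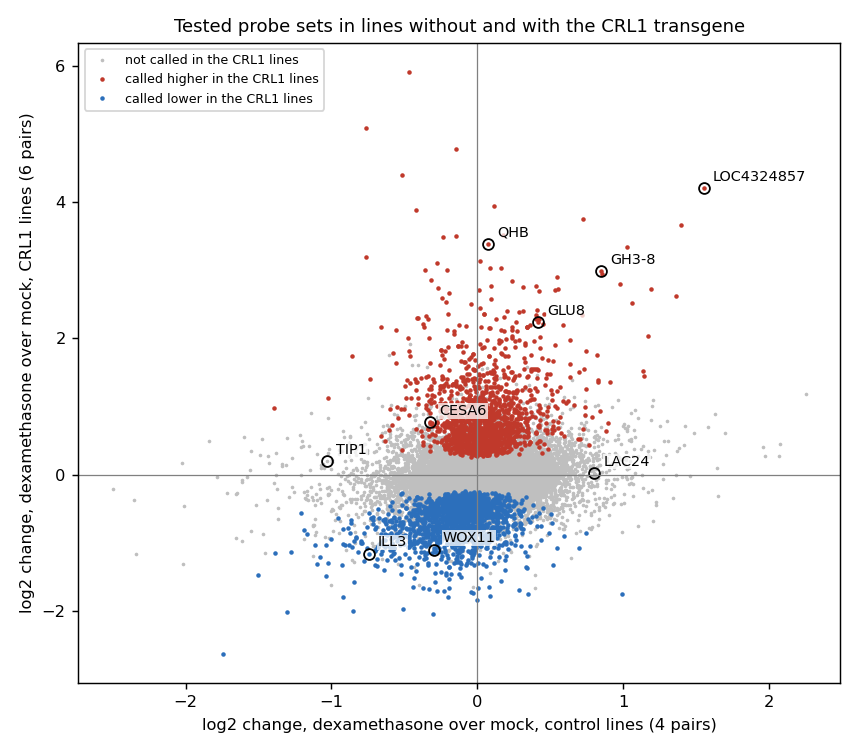
Log2 change (dexamethasone over mock) of each of the 28815 tested probe sets in the control lines (horizontal, mean of 4 pairs) and in the CRL1 lines (vertical, mean of 6 pairs), with probe sets called in the CRL1 lines in colour. QHB lies at 3.39 vertically and near 0 horizontally, while LOC4324857 lies at 4.21 and 1.55 and LAC24 at 0.028 and 0.80.

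In the CRL1 lines 44.1% of all tested probe sets were higher and 55.9% lower, and 4.86% were called higher and 5.26% called lower. Of the 20 leading named genes, 17 had the same sign there as in the control lines. The 4 called lower there were TBL6 (-0.64 ± 0.14), ILL3 (-1.16 ± 0.14), BGLU30 (-0.79 ± 0.08) and CESA4 (-0.61 ± 0.14), with limma adjusted p = 0.0249, 0.00173, 0.00072 and 0.0302. For none of these 4 did the difference between the 2 kinds of line pass the test. The largest of the 4 differences was that of ILL3, -0.41 ± 0.23 (limma adjusted p = 0.408). GH3-8 and GLU8 were the 2 called higher, and for both the difference passed the test (2.14 ± 0.30 and 1.82 ± 0.14, limma adjusted p = 0.0031 and 0.00011). LOC4324857 rose in the CRL1 lines by 4.21 ± 0.32, from 41.6 to 168 in their 6 mock arrays to 1336 to 3097 in their dexamethasone arrays. None of the other leading named genes was called in the CRL1 lines. Among these were LAC24 (0.028 ± 0.17), UGD4 (-0.18 ± 0.10), CCD8A (-0.18 ± 0.12) and TIP1 (0.20 ± 0.44). The differences of LAC24, UGD4, CCD8A and TIP1 between the 2 kinds of line missed the test (limma adjusted p = 0.141, 0.386, 0.374 and 0.375).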

How the data were processed

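The 20 arrays were read from the deposited table of MAS5 intensity values, linear signals for which the submitters' processing notes name Affymetrix Expression Console. Versions, settings and the genome build are not given in the sources used here, and all arrays share a 2% trimmed mean near 100. Array medians were 10.2 to 15.5 over the 8 control line arrays. No 2 arrays had identical values. Signals were analysed as log2(signal + 1.7), the offset being the 20th percentile, so changes of dim probe sets are understated. Of 57381 probe sets 123 array controls were left out. In the platform annotation 22436 of the rest have a single gene, 95 have more and 34727 have no gene, and 2458 genes had a name.

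Tests used limma 3.58.1 in R 4.3.3 (lmFit, eBayes with a trend), Benjamini-Hochberg adjustment over all 28815 tested probe sets, and a block for each pair of line and time. Pairing comes from the shared line. Deviations from group means of same-line control arrays correlated at 0.51 to 0.71, with 2 lines only. In the CRL1 lines same-line values ranged from -0.095 to 0.27 and between-line values from -0.25 to 0.17. The pooled effect had 3 residual degrees of freedom and 4.55 prior ones. The precision is limited by the number of arrays. A list is described by 1 probe set per gene, that of the highest mean signal.

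The named genes were, among genes with a name, the 10 of smallest p in each direction with 1 direction in all 4 pairs, the 5 of smallest p in each direction for the line and time differences, every tested crown root regulator and up to 4 genes of smallest p per list, with 2 unnamed probe sets in each direction. The members and the 39 gene lists were chosen with earlier results of these data known. Alternatives covered the offset, the filter, quantile normalization, array weights, the arrays that share the spread, the block and each line or pair left out. The fits were run on simulated data with independent errors, an effect per pair and none per line. What the pairs of a line share was therefore not checked. Tables and figures used Python 3.11.15, pandas 2.3.3, numpy 2.4.6, scipy 1.17.1 and matplotlib 3.10.9.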

Additional observations from a re-analysis of the deposited data

Results flagged for a closer look

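At 694 probe sets the effect of dexamethasone in the control lines was not that in the CRL1 lines, by a test of the difference itself over all 20 arrays. Among the genes and probe sets described above these were, with the log2 effect in the CRL1 lines minus that in the control lines in brackets, GLU8 (1.82), GH3-8 (2.14), TDC2 (1.60), the unnamed probe set that shares a transcript cluster with LOC4324857 (2.27), RR2 (-0.86), QHB (3.32), IAA15 (-0.55), ARF10 (1.29), GLU11 (0.82), CESA6 (1.10) and LOC4324857 (2.66). Each had a limma adjusted p below 0.05 for that difference.

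For some genes 1 of the 4 control pairs stood apart from the other 3. The measure is the gap to the nearest pair as a share of the whole range, and genes above Dixon's 95% critical value for 4 values were listed. They were CESA4 (0.908), SHR1 (0.869), GRXS5 (0.883), GLU11 (0.871), EXPA2 (0.950), HXK2 (0.947), PIP2-2 (0.978) and LOC4324857 (0.880). Of 109 genes and probe sets examined 8 were so listed, and chance lists about 1 in 20 groups of this size. The pair that stood apart was that of line 1 at 4 h for HXK2 (log2 change -1.29) and LOC4324857 (2.46), and that of line 1 at 8 h for CESA4 (-0.22), GRXS5 (0.083), EXPA2 (-0.49) and PIP2-2 (-0.88). It was that of line 2 at 4 h for SHR1 (-0.56) and GLU11 (-0.083).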

How the results depend on the processing

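The pooled effect and the line difference gave 0 calls under every alternative run, with smallest adjusted p from 0.0841 (without the pair of line 2 at 8 h) to 1 for the pooled effect. Without the replicate block the pooled effect had 517 probe sets at an unadjusted p below 0.05 in place of 2583, and no filter gave 4002. Leaving out lines or pairs gave 0 to 0 calls for the pooled effect and the line difference, 0 to 7 for the time difference, and 78 to 855 for the difference between the CRL1 and control lines. That last count was 251 without the replicate block (215 higher and 36 lower) and 514 to 844 under the other alternatives. The share of probe sets with an interval within 1 was 76.2% to 87.3% with lines or pairs left out, 77.2% without the replicate block and 59.0% with no filter. The median correlation between control pairs was 0.019 with no filter and 0.194 with the filter at the 75th percentile, both added after seeing the data. The counts per list under the alternatives were also added then. Without the replicate block the lower counts were 1 for cellulose synthases, lignin genes and aquaporins, 2 for expansins and 0 for Aux/IAA genes and crown root regulators. With the filter at the 75th percentile they were 2 for lignin genes (15 tested) and for crown root regulators (3 tested), and 0 P450 genes were higher (12 tested). With all 20 arrays sharing the spread they were 2 for crown root regulators and 1 for aquaporins, and quantile normalization left 3 higher P450 genes. For 167 named genes under 14 settings, 2282 of 2297 values differed from the main value by less than the spread between pairs and 0 of the claimed directions reversed. The cause of these shifts was not tested. The signal over background sets a limit, since the 28443 probe sets below the filter were not tested.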

Other observations

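The following loci were chosen after their values were seen, and nothing is tested with them. Because the empty-vector line shares its vector with the CRL1 lines, probe sets were listed whose log2 change was above 1 in both pairs of line 2 and within 0.5 in both pairs of line 1. There were 13, of which 3 were called higher in the CRL1 lines, where 4.86% of all tested probe sets were. The set with the lines exchanged held 17, of which 1 was called higher there. The set below -1 in both pairs of line 1 and within 0.5 in line 2 held 23, of which 2 (8.70%) were called higher, and its counterpart for line 2 held 7, of which 0 were. Of the 577 probe sets with the higher effect in line 2 at an unadjusted p below 0.05, 50 (8.67%) were called higher in the CRL1 lines, and of the 498 with the higher effect in line 1, 29 (5.82%) were. LOC4332662 went from 53.9 to 195 at 4 h and from 29 to 75.8 at 8 h in line 2, and stood at 2.94 on the log2 scale in the CRL1 lines. LOC4330777 went from 49.4 to 153 at 4 h and from 38.5 to 86.3 at 8 h in line 2, and stood at 2.34 on the log2 scale in the CRL1 lines. LOC4330779 went from 22 to 128 at 4 h and from 23.1 to 67.7 at 8 h in line 2, and stood at 2.52 on the log2 scale in the CRL1 lines. The line 1 mock signals at 4 h and 8 h were 110.8 and 109.4 for LOC4332662 and 69.3 and 74.4 for LOC4330777, above the line 2 mock signals. For LOC4330779 they were 24.8 and 23.1. LOC4330777 and LOC4330779 lie on chromosome 2 with 0 protein-coding genes between them in the RefSeq annotation.

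Of the 126 probe sets with a pooled change above 1 in size and 1 direction in all 4 control pairs, 54 were higher and 72 lower. In the CRL1 lines 5 of the 54 were called higher, where 4.86% of all tested probe sets were, and 13 of the 72 were called lower, where 5.26% were. Of the 72, 1 was called higher.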
